A study of Homo sapiens with 4 samples.

Results

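The HOX genes described here are the 39 protein-coding genes whose symbol is HOX, a cluster letter from A to D and a number, taken by name from the 58051 genes that each deposited table lists. PolyA RNA was sequenced from A549, an established human lung carcinoma line, in 4 libraries. Every library carried A-FOS, an acidic dominant-negative form of FOS that pairs with JUN proteins and keeps AP-1 off DNA, put into the genome at random sites with piggyBac and switched on by doxycycline. The minus Dox group (2 libraries) had no treatment and the plus Dox group (2 libraries) had 1 µg/mL doxycycline in the medium. The sample titles call the insertion a knock-in. The sources used here give neither the promoter of the A-FOS gene, nor whether the cells were a clone, nor how long doxycycline was present. No doxycycline-treated A549 without A-FOS is among the samples, so A-FOS and doxycycline itself cannot be told apart. Whether libraries with the same treatment are separate cultures is not stated, so each p-value reflects only how these libraries scatter, and that scatter may be technical.

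HOX genes encode homeodomain transcription factors that set position along the body axis. They lie in 4 clusters, and genes at the 3′ end of a cluster (low numbers, the anterior genes) are switched on earlier and nearer the head than genes at the 5′ end (high numbers, the posterior genes). Genes with the same number in different clusters are copies of a common ancestor and form a paralog group. HOX proteins bind DNA with TALE-class partners such as PBX and MEIS. Polycomb proteins keep silent HOX genes off, trithorax proteins keep active ones on, and retinoic acid induces the anterior genes. In the developing lung, HOXA5 and HOXB5 take part in airway branching.

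The libraries held 36377784 and 40526912 counts (minus Dox) and 32727539 and 31104964 counts (plus Dox), and 18046 genes passed the filter on low counts and were tested. FOS, to which reads of the introduced gene may have been assigned, stood at 1.36 and 1.52 CPM (counts scaled to a common library size) without doxycycline and at 48.6 and 51.0 CPM with it. Plus Dox against minus Dox called 56.9% of the tested genes at an adjusted p under 0.05 (edgeR's quasi-likelihood test, Benjamini-Hochberg), 28.4% higher and 28.4% lower. TMM, the scaling used below, set the median gene at no change, whereas scaling by library size alone moved that median up by 0.22 on the log2 scale, with 7865 genes called higher and 2925 lower. All changes below are therefore relative to the median gene. Of the markers fixed for A549's lineage, the epithelial set (KRT8, KRT18, EPCAM, CDH1) summed to between 8057 and 8202 CPM without and between 5748 and 5939.8 CPM with doxycycline. Of the 6 alveolar markers only ABCA3 and NAPSA were expressed, SFTPA1 was at 0 in all libraries, and SFTPB, SFTPC and NKX2-1 were near the limit of 3 counts. Markers of leukocytes summed to 3.39 CPM at most and those of endothelium to 1.63 CPM at most. Fibroblast markers summed to between 39.0 and 46.1 CPM without and between 37.0 and 38.5 CPM with doxycycline. The part of these shifts in the HOX values was not tested.

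A549 expressed HOX genes of all 4 clusters. Called expressed at a mean of at least 1 CPM in either group, 31 of the 39 genes qualified. Among them were 11 of 11 in HOXA, 9 of 10 in HOXB, 7 of 9 in HOXC and 4 of 9 in HOXD. HOXA9 qualified through plus Dox only, with means of 0.563 CPM in minus Dox and 1.22 CPM in plus Dox. HOXC5, HOXC12 and HOXD1 were weakly detected. HOXB1, HOXD3, HOXD4, HOXD12 and HOXD13 had 3 counts or fewer in every library, and HOXB1 and HOXD13 had 0 in all 4. At this depth 3 counts correspond to between 0.0800 and 0.0895 CPM, which is the level that a count of 0 still allows, for counting error only. Summed over members, HOX messages took 301 ± 1.56 CPM in minus Dox and 321 ± 4.64 CPM in plus Dox (SD, n = 2 libraries each). HOXB supplied 46.5% and 44.7% of these sums, which are not corrected for length, HOXC 29.3% and 31.1%, HOXA 19.0% and 19.0%, and HOXD 5.14% and 5.31%.

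Per kilobase of exon, the scale on which different genes can be compared, HOXB7 was the most abundant HOX message at 18.6 CPM per kb over both groups, the 85.1 percentile of protein-coding genes with a count. HOXC13 followed with 11.0, HOXB6 with 8.06, HOXB9 with 7.53 and HOXC9 with 6.23 CPM per kb. The highest HOXA gene was HOXA3 at 5.29 CPM per kb, and the highest HOXD gene was HOXD8 at 2.97 CPM per kb. No cluster ran evenly from high to low along its length. In places a low gene stood beside a higher one, as HOXA4 beside HOXA3 or HOXB4 beside HOXB3. HOXA4 and HOXB4 share 31% and 17.1% of their exon bases with same-strand genes, so their low levels are uncertain. HOXB5 to HOXB13 all stood at 5.33 CPM per kb or more. Among them HOXB7, at 18.6, stood well above its neighbours HOXB6 at 8.06 and HOXB8 at 5.78 CPM per kb. Elsewhere neighbours were more alike: HOXC6 to HOXC10 stood between 4.86 and 6.23 CPM per kb.

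**Figure D1:**
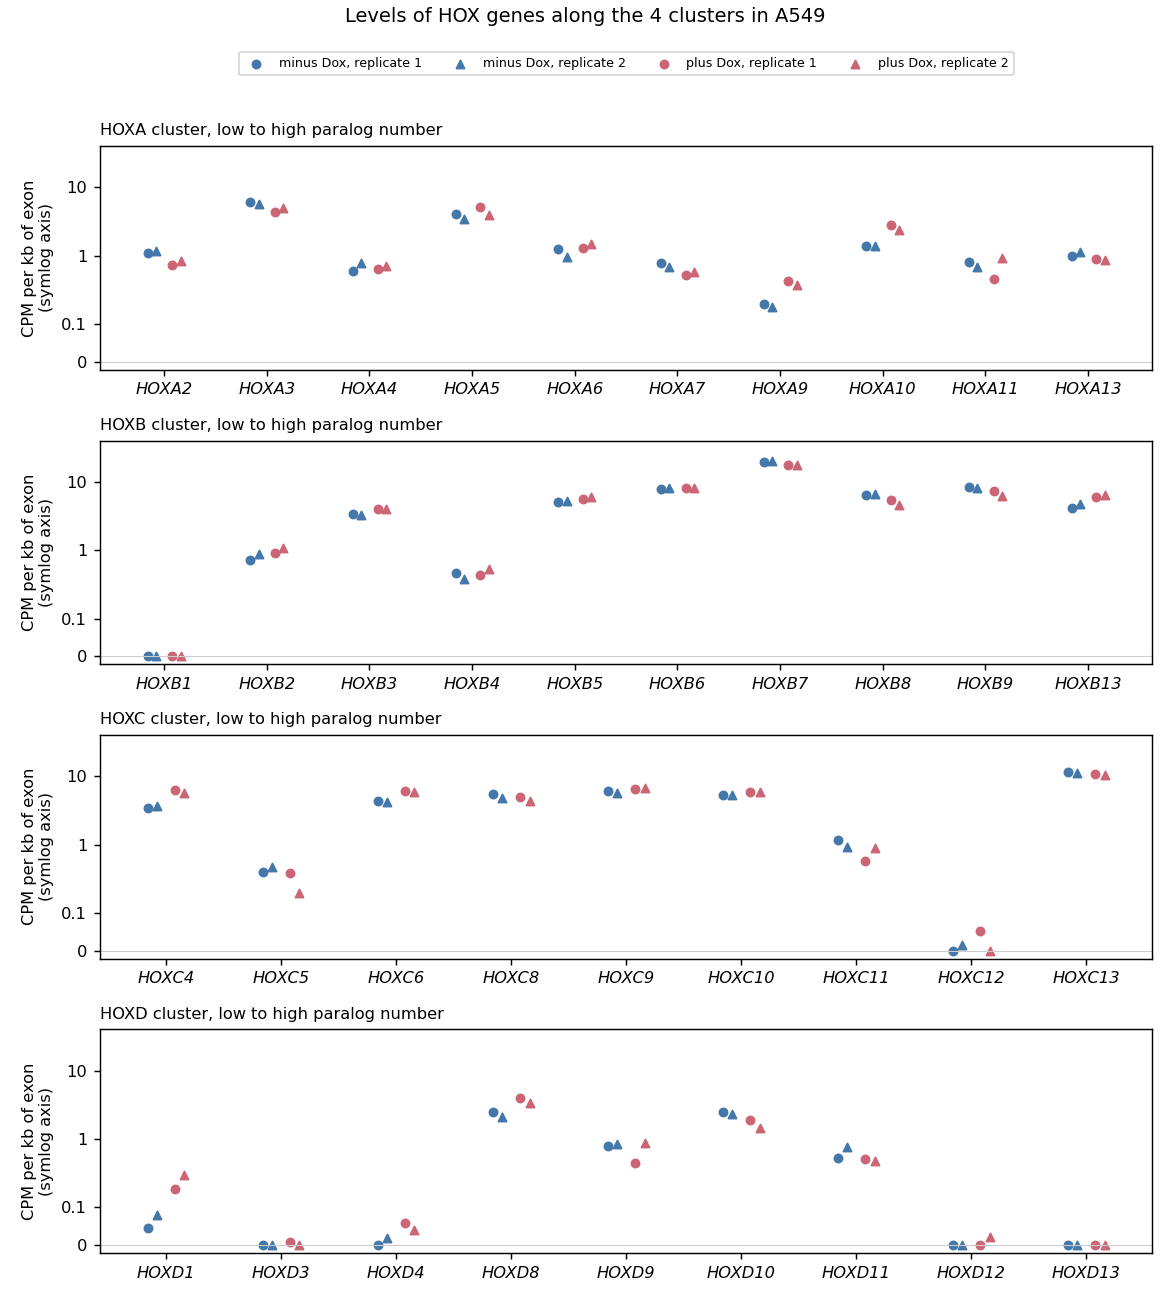
Level of each HOX gene in each of the 4 libraries, in CPM per kb of exon on a symmetric log axis that is linear near 0, with the 4 clusters as panels and genes ordered from low to high number. Every HOXA gene shown is above 0, HOXB lacks only HOXB1, and in HOXD the block from HOXD8 to HOXD11 stands above both ends.

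With doxycycline, 33 of the 39 genes could be tested, and 16 were called, 9 higher and 7 lower. That is 48.5% of the tested HOX genes beside 56.9% of all tested genes, 65.5% of tested protein-coding genes and 45.6% of tested genes at a mean level within the range of the tested HOX genes (0.304 to 28.3 CPM). The median log2 fold change of the HOX genes was 0.01, beside 0.00 over all tested genes. The groups did not overlap for 26 of the 33, where 77.0% of all tested genes also did not overlap. HOXD1, which passed the low-count filter through its treated libraries only, is among the 33 tested and the 9 higher. Only HOXA9 and HOXD1 were called with at least a 2-fold difference, which 12.7% of tested genes reached. A share this near the background says nothing particular about the HOX genes as a set. Each cluster held both rises and falls. In bulk RNA, a change in the number of cells that express a gene and a change in its RNA per cell cannot be told apart.

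Several calls depended on the analysis. HOXA10, HOXB3, HOXB13, HOXC4, HOXC6 and HOXD8, all higher with doxycycline, were called under all 8 alternative analyses. Among the other rises, HOXA9 was called in 5 and HOXD1 in 4 of the 8 alternatives, and among the falls HOXA3 was called in 7 and HOXB8 in 6. Library size scaling raises all genes alike and so favours rises: none of the 7 falls was called with it, and edgeR then called 14 HOX genes higher and 0 lower, and the median HOX log2 fold change was 0.23. DESeq2 called 2 of the falls, HOXA3 and HOXB8. Without plus Dox replicate 1, 4 HOX genes were called lower, and without plus Dox replicate 2, 3 were. A fall below is therefore a fall against the median gene.

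**Figure D2:**
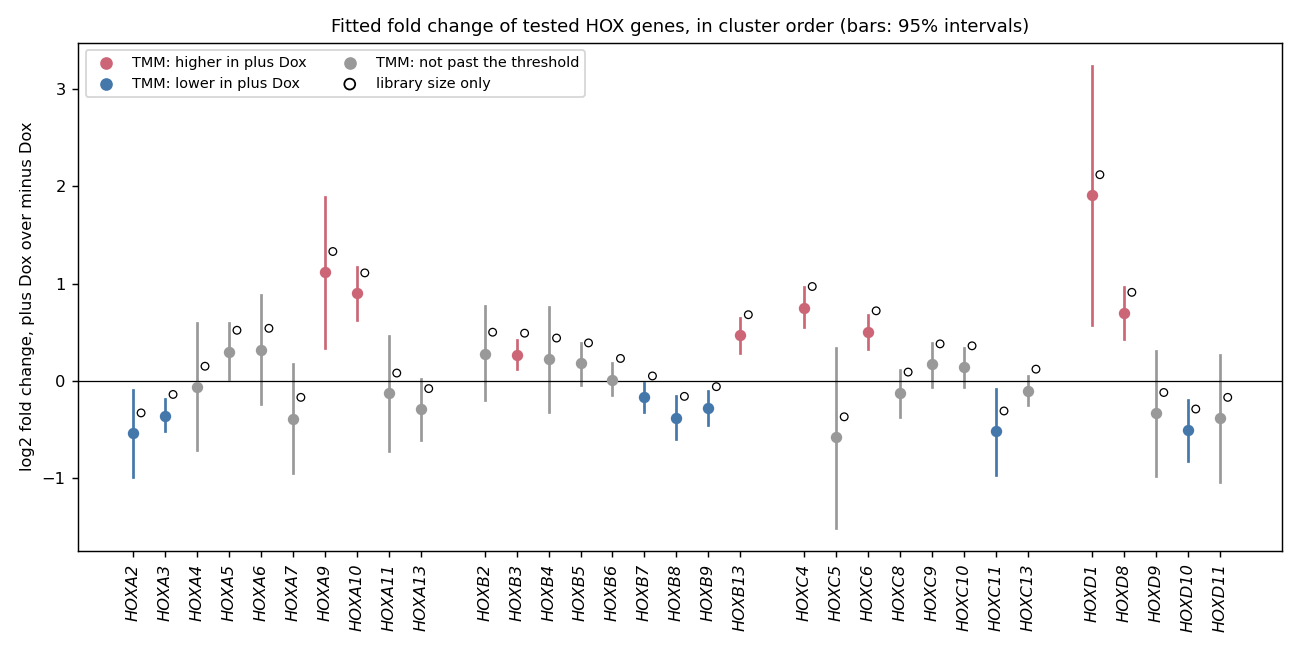
Fitted log2 fold change (plus Dox over minus Dox) of tested HOX genes in cluster order, with 95% intervals; filled points use TMM scaling, coloured by call, and open points library size alone. The open points lie above the filled ones throughout, and the lower calls in HOXA, HOXB, HOXC and HOXD sit between -0.17 and -0.54.

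The HOXA cluster (chromosome 7, from HOXA2 to HOXA13 27100354 to 27200106, hg38, minus strand) was detected throughout, with HOXA9 under 1 CPM without doxycycline. It had 3 genes higher, 2 lower and 6 not past the threshold. Its members summed to 57.9 and 56.3 CPM without and 60.3 and 61.3 CPM with doxycycline. HOXA10, a posterior gene of the reproductive tract and blood progenitors, went from 5.18 and 5.10 to 10.4 and 8.74 CPM. Both treated libraries lay well above both untreated ones, a rise of 0.90 on the log2 scale (SE 0.13, adjusted p = 3.28e-07). HOXA10 shares 9.93% of its exon bases with other genes on its strand and 16.4% on the other strand. For its neighbour HOXA9 these shares are 13.1% and 13.9%, so the counts of both are partly uncertain. HOXA9, a gene of blood stem cells and leukaemia, was low, with 20 and 20 counts without and 46 and 38 with doxycycline. Its levels were 0.592 and 0.534 against 1.31 and 1.13 CPM. Its rise of 1.12 (SE 0.38, adjusted p = 0.0117) was lost with DESeq2, without minus Dox replicate 2 and without plus Dox replicate 1, its adjusted p reaching 0.113.

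The falls were those of HOXA2 and HOXA3, anterior genes that pattern the pharyngeal arches. HOXA3 was at 26.5 and 24.7 CPM without and at 18.8 and 21.2 CPM with doxycycline. Its libraries did not overlap, and it fell by 0.36 on the log2 scale (SE 0.08, adjusted p = 0.000313). HOXA2 was at 2.72 and 2.88 against 1.79 and 2.06 CPM, a fall of 0.54 (SE 0.22, adjusted p = 0.0354) that was lost with library size scaling, with DESeq2, without minus Dox replicate 2 and without plus Dox replicate 1.

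The other 6 HOXA genes did not pass. HOXA5, the gene with the closest tie to lung development, was at 6.95 and 5.84 CPM without and at 8.95 and 6.77 CPM with doxycycline, and these groups overlapped. Its log2 fold change was 0.30 (95% interval 0.02 to 0.59, adjusted p = 0.0640), and 4 alternatives called it higher, so its call depended on the setting. HOXA4, HOXA6, HOXA7, HOXA11 and HOXA13 had log2 fold changes of -0.06, 0.32, -0.39, -0.13 and -0.29. HOXA4, HOXA6, HOXA7 and HOXA11 each overlap another gene on 1 strand by over 25% of their exon bases, so their counts are uncertain.

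The HOXB cluster (chromosome 17, 48528526 to 48729178, hg38, minus strand) had the largest summed CPM, with 2 genes higher, 3 lower, 4 not past the threshold and HOXB1 at 0. Its sum was 138 and 142 CPM without and 144 and 142 CPM with doxycycline, so the nearest libraries of the groups both rounded to 142. From HOXB2 to HOXB8 the log2 fold changes descended with the number, from 0.28 for HOXB2 and 0.27 for HOXB3 through 0.22 for HOXB4, 0.18 for HOXB5 and 0.01 for HOXB6 to -0.17 for HOXB7 and -0.38 for HOXB8. HOXB9 followed at -0.28, and HOXB13, 98.4 kb further on, stood at 0.47. This order is a description, without a test, and of the 9 values 5 passed the threshold.

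HOXB3 was at 25.1 and 24.7 CPM without and at 30.0 and 30.1 CPM with doxycycline. The shift was small but both pairs were tight, and it rose by 0.27 (SE 0.07, adjusted p = 0.00177). HOXB13, a posterior gene known from prostate and distal gut, went from 14.3 and 16.7 to 20.9 and 22.0 CPM, again without overlap, a rise of 0.47 (SE 0.09, adjusted p = 2.77e-05).

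The adjacent genes HOXB7, HOXB8 and HOXB9 were called lower. HOXB8 was at 13.2 and 13.6 CPM without and at 11.1 and 9.46 CPM with doxycycline, a fall of 0.38 (SE 0.11, adjusted p = 0.00246), and its treated libraries differed from each other more than its untreated ones. HOXB9 went from 21.9 and 20.7 to 19.0 and 16.1 CPM, a fall of 0.28 (SE 0.09, adjusted p = 0.00788). Without plus Dox replicate 2, the lower of the treated pair for both genes, neither call held. HOXB7, the most abundant HOX gene, was at 29.5 and 30.5 against 26.7 and 26.6 CPM, and its log2 fold change of -0.17 (SE 0.07, adjusted p = 0.0439) turned to 0.05 with library size scaling alone and was called in only 2 of the 8 alternatives (the replicate block and without minus Dox replicate 1).

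**Figure D3:**
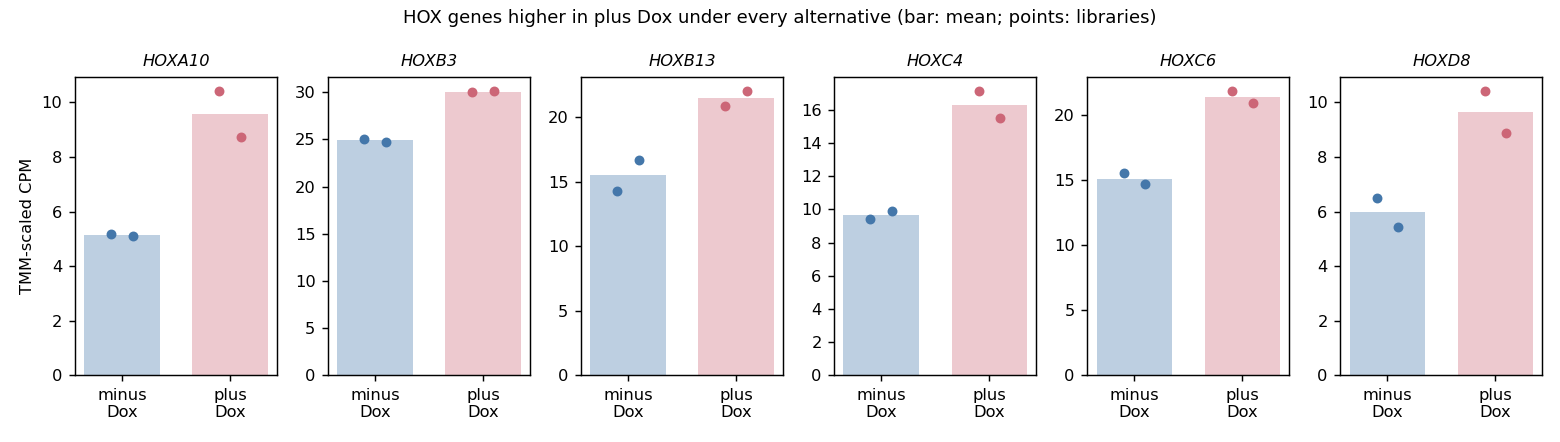
TMM-scaled CPM of HOX genes called higher with doxycycline in every alternative analysis; bars are means of 2 libraries, points the libraries, and each panel has its own axis from 0. In every panel both plus Dox points lie above both minus Dox points, from a 1.21-fold difference for HOXB3 to 1.86-fold for HOXA10.

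The HOXC cluster (chromosome 12, 53938765 to 54056030, hg38, plus strand) had the largest gain in summed level among the 4, from 89.9 and 86.6 CPM without to 102 and 97.7 CPM with doxycycline. It had 2 genes higher, 1 lower and 5 not past the threshold, with HOXC12 too low to test. HOXC4 was at 9.44 and 9.90 CPM without and at 17.1 and 15.5 CPM with doxycycline. All treated values were well clear of the untreated ones, and it rose by 0.75 (SE 0.10, adjusted p = 6.20e-08). HOXC6, a gene of thoracic patterning, went from 15.5 and 14.7 to 21.8 and 20.9 CPM, also without overlap, a rise of 0.50 (SE 0.09, adjusted p = 5.15e-06). HOXC5 comes between them in number and lies inside the span of the HOXC4 gene model. It had 24 and 32 counts without and 24 and 12 with doxycycline, and its log2 fold change of -0.58 (95% interval -1.51 to 0.34) did not pass. Gene models overlap here: HOXC4 and HOXC6 share 484 exon bases, so reads there could not be given to 1 gene from the sources used here. A non-coding gene model that also bears the symbol HOXC5, and had 0 counts, shares 305 exon bases with each of them and 59.9% of the exon bases of the protein-coding HOXC5.

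HOXC11, a posterior gene of the hindlimb and tail, was at 3.79 and 2.99 CPM without and at 1.85 and 2.86 CPM with doxycycline, a fall of 0.52 (SE 0.22, adjusted p = 0.0389). Plus Dox replicate 2 was close to the lower untreated library, and the call was lost with library size scaling, with DESeq2, without minus Dox replicate 1 and without plus Dox replicate 1. The more strongly expressed posterior genes of the cluster did not pass, with log2 fold changes of 0.17 for HOXC9, 0.14 for HOXC10 and -0.10 for HOXC13, the last at 27.8 and 27.2 against 26.0 and 25.2 CPM. HOXC8, beside them, had -0.13. For HOXC13 the 95% interval, -0.25 to 0.05, left room for only a small change in either direction under TMM scaling. HOXC12 had 0 and 2 counts without and 6 and 0 with doxycycline.

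HOXC4 is shown by sequence because RefSeq places a start of HOXC4 and one of HOXC5 on the same base. In the gene models used here for coordinates, HOXC4 begins at 54016931 and the protein-coding HOXC5 only at 54032853. The shared window therefore does not stand directly before that HOXC5 model. The window runs from 250 bases before to 50 after the shared start (chr12:54016638-54016937, plus strand, GRCh38.p14). Its capitals mark a match to the forkhead word TGTTTAC, here on the opposite strand, and the start base.
HOXC4: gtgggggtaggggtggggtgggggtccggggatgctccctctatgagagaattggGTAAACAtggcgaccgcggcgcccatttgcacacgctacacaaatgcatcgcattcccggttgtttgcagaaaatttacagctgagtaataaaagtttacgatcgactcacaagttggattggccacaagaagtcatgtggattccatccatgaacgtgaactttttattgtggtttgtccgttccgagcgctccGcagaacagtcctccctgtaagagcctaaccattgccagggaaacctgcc
The forkhead word was searched on both strands because the series concerns FOXA1 and AP-1. It stood in 2 of the 27 RefSeq windows found for 20 of the 39 HOX genes, both of them this shared one, and in 3.42% of all 35116 windows. The AP-1 word TGANTCA, on both strands, stood in 0 of the 27 HOX windows and in 7.71% of all windows. These matches describe letters in short windows at annotated starts, and no binding was measured in these samples.

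The HOXD cluster (chromosome 2, 176092891 to 176190907, hg38, plus strand) had the lowest summed CPM and was weakly detected or at most at the 3-count limit at both ends. Its sum was 15.8 and 15.1 CPM without and 17.9 and 16.1 CPM with doxycycline, almost all of it from HOXD8, HOXD9, HOXD10 and HOXD11. HOXD13 had 0 counts in all libraries, HOXD12 and HOXD3 had 1 count each in the 4 libraries together, and HOXD4 had at most 3 in a library. HOXD3 and HOXD4 share 62.2% and 80.5% of their exon bases with a same-strand gene model, AC009336.2, which had 1 count in the 4 libraries together, so these low counts are uncertain.

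HOXD8 was at 6.51 and 5.44 CPM without and at 10.4 and 8.89 CPM with doxycycline. The groups stood apart, and it rose by 0.70 (SE 0.13, adjusted p = 2.08e-05). HOXD10, a gene of hindlimb and lumbar patterning, went the other way, from 6.63 and 6.27 to 5.14 and 3.91 CPM, a fall of 0.51 (SE 0.15, adjusted p = 0.00478) that was lost with library size scaling, with DESeq2 and without plus Dox replicate 2. HOXD9 and HOXD11, on either side of HOXD10, had log2 fold changes of -0.33 and -0.38 and did not pass. HOXD10 and HOXD11 share 452 exon bases.

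At the anterior end, HOXD1 had 3 and 6 counts without and 13 and 20 with doxycycline (0.0887 and 0.160 against 0.369 and 0.597 CPM). It passed the low-count filter through its treated libraries only, and with so few counts its fitted rise of 1.91 had a 95% interval from 0.57 to 3.24 (adjusted p = 0.0120) and was lost with DESeq2, without either minus Dox library and without plus Dox replicate 2. An antisense gene model with 0 counts, AC009336.3, covers 50.1% of its exon bases. HAGLR, the antisense non-coding RNA that starts beside HOXD1 and runs the other way, rose from 3.25 and 3.84 to 7.39 and 7.37 CPM, a log2 fold change of 1.05 (SE 0.15, adjusted p = 2.19e-07). HAGLR and HOXD1 share 158 exon bases on opposite strands. The libraries came from a stranded kit, but the strand setting of the counting is not given in the sources used here, so reads in the shared bases could not be assigned to 1 gene.

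The starts of 3 HOXD genes are shown to set the region between the divergent HOXD1, weakly detected, and HAGLR, which rose, beside a middle gene that rose (HOXD8) and a posterior gene with 0 counts (HOXD13). Each line is the RefSeq window in GRCh38.p14 on the plus strand, HOXD1 at chr2:176188418-176188717, HOXD8 at chr2:176129455-176129754 and HOXD13 at chr2:176092471-176092770. The capital at position 251 of each window is the start base, the capital at position 155 of the HOXD1 window is a HAGLR start on the minus strand, and the run of capitals before the HOXD13 start is the TATA word TATAAA matched on both strands, where the matches overlap.
HOXD1: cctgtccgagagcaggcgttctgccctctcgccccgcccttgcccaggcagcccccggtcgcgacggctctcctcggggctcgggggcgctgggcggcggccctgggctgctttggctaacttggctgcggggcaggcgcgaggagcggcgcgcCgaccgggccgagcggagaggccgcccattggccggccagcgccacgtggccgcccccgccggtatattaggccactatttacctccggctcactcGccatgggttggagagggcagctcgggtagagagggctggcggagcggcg
HOXD8: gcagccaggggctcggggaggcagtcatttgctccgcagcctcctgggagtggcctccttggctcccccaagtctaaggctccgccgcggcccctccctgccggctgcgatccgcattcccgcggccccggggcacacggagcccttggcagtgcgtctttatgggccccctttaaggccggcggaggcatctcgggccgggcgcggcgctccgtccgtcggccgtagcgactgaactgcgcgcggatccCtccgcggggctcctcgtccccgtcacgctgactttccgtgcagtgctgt
HOXD13: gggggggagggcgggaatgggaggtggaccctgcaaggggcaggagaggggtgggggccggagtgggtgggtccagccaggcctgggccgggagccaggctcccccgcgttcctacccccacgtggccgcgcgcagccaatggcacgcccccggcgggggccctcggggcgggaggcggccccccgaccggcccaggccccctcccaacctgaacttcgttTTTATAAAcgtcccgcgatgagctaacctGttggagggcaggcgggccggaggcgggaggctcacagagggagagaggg
One of the HAGLR starts thus lies 96 bases before the HOXD1 start and points away from it. The HOXD1 and HOXD8 windows hold 36 and 34 CG pairs and the HOXD13 window 24, beside a median of 22 over the 27 HOX windows and 14 over all windows. The TATA word stood in 5 of the 27 HOX windows (18.5%), those of HOXA3, HOXA9, HOXA10 and HOXD13, and in 11.5% of all windows.

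Grouped by paralog number, the summed level without doxycycline was highest in group 7 at 20.4 CPM per kb, followed by group 13 at 16.9, group 9 at 15.1, group 8 at 13.9 and group 6 at 13.4. Group 2 stood at 1.95 CPM per kb, and group 12 at 0.00800. So the middle and posterior groups carried most of the HOX message, and HOXB7 and HOXC13 each made up most of their group. With doxycycline, group 4 stood at 7.18 CPM per kb, against 4.67 without, through HOXC4. In the anterior groups 1 to 4, 4 of 9 tested genes rose and 2 fell. Among these rises was HOXD1, which has few counts and passed the low-count filter through its treated libraries only. In the central groups 5 to 8, 2 of 11 rose and 2 fell, and in the posterior groups 9 to 13, 3 of 13 rose and 3 fell. Called shares were 66.7%, 36.4% and 46.2%, beside 65.5% of tested protein-coding genes and 56.9% of all tested genes (28.4% higher and 28.4% lower). With library size scaling these shares were 44.4%, 45.5% and 38.5%, beside 59.8% of all tested genes. With DESeq2 they were 44.4%, 27.3% and 15.4%, beside 44.6%. The median log2 fold changes under TMM were 0.27, 0.01 and -0.13.

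**Figure D4:**
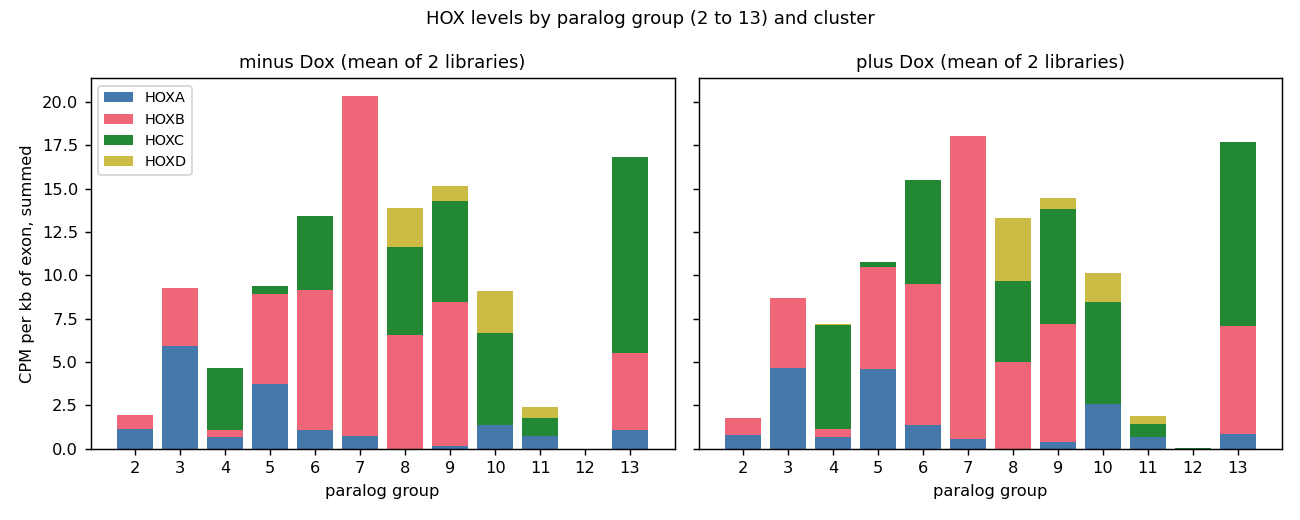
Summed level of paralog groups 2 to 13 in CPM per kb of exon, mean of 2 libraries per group, stacked by cluster. Group 7 (mostly HOXB7) and group 13 (mostly HOXC13 and HOXB13) are the highest in minus Dox, and group 12 is at the bottom in both panels.

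Paralogs that were called did not always share a direction. In group 8, HOXD8 rose and HOXB8 fell, and in group 9 HOXA9 rose and HOXB9 fell. In group 10, HOXA10 rose, HOXD10 fell and HOXC10 did not pass, and in group 3 HOXB3 rose while HOXA3 fell. Of 35 adjacent pairs along the clusters, 6 had both members called, 4 in the same direction (HOXA2 with HOXA3, HOXA9 with HOXA10, HOXB7 with HOXB8, and HOXB8 with HOXB9) and 2 in opposite directions, among them HOXB9 with HOXB13.

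The non-coding RNAs of the clusters were mostly low and mostly did not pass. Of 21 listed RNAs that were found, 17 were tested, 1 rose (HAGLR), 1 fell and 15 did not pass (11.8% called, beside 56.9% of all tested genes), with a median log2 fold change of 0.03. The 56.9% is an unlike share, since 13964 of the 18046 tested genes were protein-coding and 65.5% of those were called. Of the 10265 called genes 9143 were protein-coding, so tested genes of other types were called less often than 56.9%. HOTTIP, the RNA at the 5′ end of HOXA, had 22 and 12 counts without and 5 and 7 with doxycycline. It passed the low-count filter through its untreated libraries only. Its fitted fall of 1.44 (SE 0.63, adjusted p = 0.0457) was called in none of the 8 alternatives. Its adjusted p was 0.0866 with library size scaling, 0.246 with DESeq2, 0.0761 with no filter, 0.0602 with the replicate block, and 0.0519 without minus Dox replicate 2, 0.290 without plus Dox replicate 1 and 0.141 without plus Dox replicate 2. Without minus Dox replicate 1 it was too low to test. HOTAIRM1, a myeloid non-coding RNA of the HOXA cluster, was at 5.71 and 5.20 CPM without and at 6.48 and 5.46 CPM with doxycycline. These values overlapped, and its log2 fold change of 0.13 (adjusted p = 0.459) did not pass. HOTAIR, the HOXC antisense RNA known for work on Polycomb, had means of 1.54 and 1.74 CPM (log2 fold change 0.18, adjusted p = 0.592).

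The remaining tested RNAs ran from -1.01 for HOXC-AS3 and -0.91 for HOXC-AS2 to 0.48 for HOXB-AS1. Between these were HOXA11-AS at -0.60, HOXA10-AS at -0.48, HOXC13-AS at -0.23, HOXD-AS2 at -0.20, HOXA-AS3 at 0.00, HOXB-AS3 at 0.03, HOXB-AS4 at 0.03, HOXA-AS2 at 0.05, HOXC-AS1 at 0.32 and MIR196A1 at 0.36. HOXA-AS2 and HOXB-AS3 had the highest CPM (not corrected for length), at 9.82 and 9.32 CPM without and 10.2 and 9.51 CPM with doxycycline. HOXB-AS2, HAGLROS, MIR10B and MIR196A2 were too low to test. The antisense RNAs HOXA-AS3, HOXA10-AS, HOXA11-AS, HOXB-AS1, HOXB-AS3 and HOXD-AS2 share over 25% of their exon bases with genes on the other strand, and HOTAIRM1 shares 43.2% on its own strand.

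The protein-coding genes outside the clusters, the nearest 5 on each side at whatever distance, moved in both directions. Below, beside a cluster means only among these genes. Of 36 tested, 13 rose, 11 fell and 12 did not pass (66.7% called, beside 65.5% of all tested protein-coding genes), with a median log2 fold change of 0.01. LNPK, an endoplasmic reticulum protein 90.1 kb from HOXD13, went from 22.2 and 21.4 to 46.9 and 41.9 CPM, a rise of 1.03 (SE 0.07, adjusted p = 1.16e-14). SNX10, a sorting nexin among the flanking genes of HOXA, went from 7.22 and 5.98 to 19.5 and 18.8 CPM, a rise of 1.54 (SE 0.11, adjusted p = 9.34e-15). For both genes, the treated libraries stood far above the untreated ones.

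Further rises among the flanking genes of HOXA were SKAP2 (0.46), TAX1BP1 (0.19), JAZF1 (0.97) and CREB5 (1.69, at under 1 CPM in both groups and lost with DESeq2), and NFE2L3 fell by 0.26. Beside HOXB, TTLL6 (0.77) and CALCOCO2 (0.15) rose, while ATP5MC1, UBE2Z and SNF8 fell by 0.45, 0.25 and 0.20. Beside HOXC, CALCOCO1 (0.47) and NFE2 (1.30) rose, and ATP5MC2, COPZ1, HNRNPA1, SMUG1 and ATF7-NPFF fell by 0.38, 0.44, 0.24, 0.22 and 0.91. Beside HOXD, ATF2 (0.28), MTX2 (0.31) and NFE2L2 (0.36) rose as LNPK did, and CHN1 and HNRNPA3 fell by 0.29 and 0.10. With DESeq2 or without plus Dox replicate 1, 7 fell. With library size scaling alone 25 rose and 3 fell, and SNF8 and HNRNPA3 then had log2 fold changes of 0.02 and 0.12. ATF7-NPFF, a read-through model, shares 76.1% of its exon bases with its same-strand neighbours and is uncertain.

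Of the TALE cofactors, 8 of 9 were tested, 2 rose, 1 fell and 5 did not pass (37.5% called, beside 65.5% of tested protein-coding genes; median log2 fold change 0.17). MEIS3 went from 60.2 and 60.6 to 107 and 105 CPM, with each pair tight and far apart, a rise of 0.81 (SE 0.05, adjusted p = 2.57e-16). PBX3 rose by 0.31 (adjusted p = 0.00262), from 19.8 and 16.9 to 23.7 and 21.7 CPM. PKNOX1 stood at 0.18 (adjusted p = 0.0807) and did not pass. The count of cofactors that rose was 5 with library size scaling and 1 without minus Dox replicate 2 or without plus Dox replicate 1.

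Among Polycomb genes the core enzyme EZH2 (log2 fold change 0.01) did not pass, while its partner SUZ12 rose. PRC2, the complex that methylates histone H3 at lysine K27, had 11 tested genes, of which 4 rose, 2 fell and 5 did not pass (54.5% called, beside 65.5% of tested protein-coding genes; median 0.01). SUZ12, a core subunit, went from 104 and 102 to 186 and 179 CPM, a rise of 0.83 (SE 0.04, adjusted p = 3.35e-18). The accessory subunit AEBP2 rose by 0.67 and the core subunit EED by 0.37, and PHF19, which recruits the complex, fell by 1.00 from 148 and 148 to 74.4 and 73.9 CPM (SE 0.05, adjusted p = 8.10e-20). So members of 1 complex were called in both directions, each with libraries that did not overlap. With library size scaling 8 rose and 1 fell, and without either plus Dox library 1 fell.

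PRC1, the complex that ubiquitinates histone H2A, had 16 tested genes, of which 7 rose, 1 fell and 8 did not pass (50.0% called, beside 65.5% of tested protein-coding genes; median 0.20). BMI1 went from 20.3 and 20.2 to 52.1 and 53.7 CPM, a rise of 1.38 (SE 0.07, adjusted p = 4.91e-19), and 23.3% of its exon bases are shared with another gene on its strand. PCGF5 and PCGF3, alternative subunits in the place of BMI1, rose by 0.64 and 0.60. PHC2, a polyhomeotic subunit, fell by 0.83 from 96.2 and 92.1 to 52.9 and 53.0 CPM. With library size scaling 13 rose, and without minus Dox replicate 1, 2 fell.

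The trithorax and H3K27 demethylase list had 13 tested genes, of which 7 rose, 4 fell and 2 did not pass (84.6% called, beside 65.5% of tested protein-coding genes; median 0.18). The chromatin adaptor PSIP1 rose by 0.62, the demethylase KDM6A by 0.52 and DPY30, a subunit of the methyltransferase complexes, by 0.50, though 50.5% of DPY30's exon bases are shared on its strand. The H3K79 methyltransferase DOT1L fell by 0.42. Of 8 genes of CTCF and cohesin, which shape chromatin loops, 4 rose, 3 fell and 1 did not pass (87.5% called, beside the same 65.5%; median 0.10). STAG2, NIPBL and RAD21 rose by 0.38, 0.32 and 0.29. SMC1A fell by 0.20 under TMM, whereas its log2 fold change with library size alone was 0.02. With that scaling 1 gene of the first list and 0 of the second were called lower by edgeR.

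Of 16 genes of retinoic acid synthesis, breakdown and response, 13 were tested, 3 rose, 6 fell and 4 did not pass (69.2% called, beside 65.5% of tested protein-coding genes; median 0.05). ALDH1A1, which makes retinoic acid from retinal and was at 10326 and 10282 CPM without doxycycline, was at 4769 and 4731 CPM with it. Its libraries stood far apart, a fall of 1.12 (SE 0.03, adjusted p = 5.53e-28). RDH10, which makes retinal, fell by 0.74, the retinal reductase DHRS3 by 0.51 and the receptor RARB by 0.58, and all 4 falls were also called with library size scaling and with DESeq2. No relation between these genes and the HOX genes was tested. The count of retinoic acid genes that rose was 5 with library size scaling and 1 with DESeq2 or without plus Dox replicate 1.

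**Figure D5:**
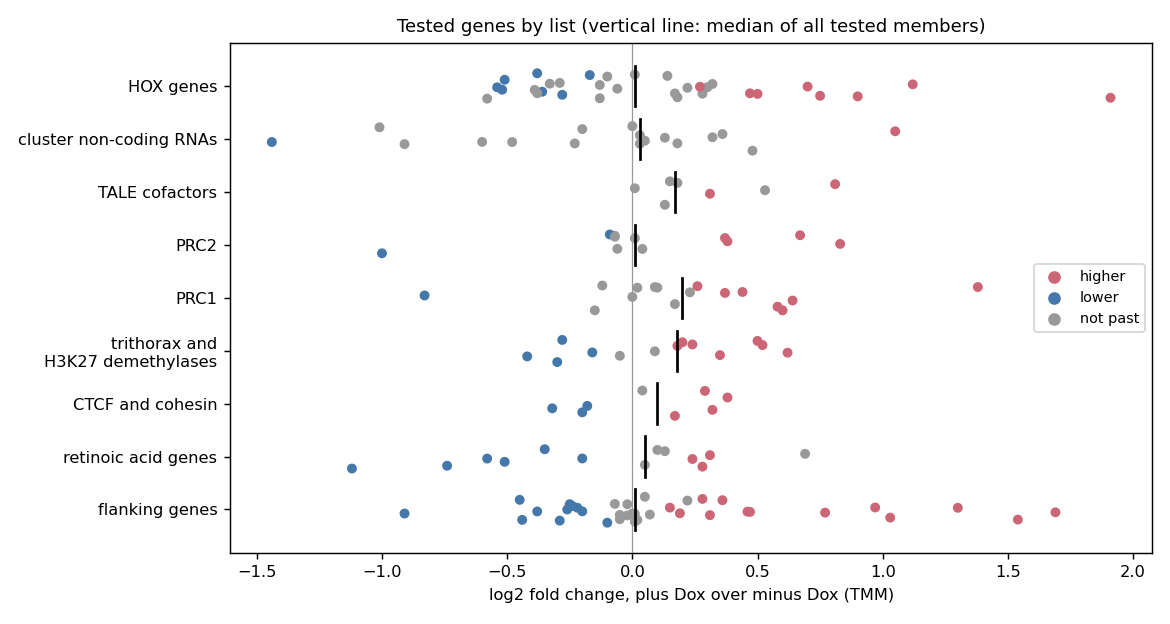
Log2 fold change (plus Dox over minus Dox, TMM) of tested genes among the HOX genes and 8 related lists, coloured by call, with a vertical line at the median of all tested members. The list medians lie between 0.01 and 0.20, and only the flanking genes and PRC1 besides HOXD1 and HOXA9 hold members called above 1.1.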

How the data were processed

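Each library has 1 deposited table of raw read counts for Ensembl genes, not normalized by the authors, per the file headers and values. The submitters' processing notes list featureCounts 2.0.3, STAR 2.7.10b, DESeq2 2.11.40.7, cutadapt 4.0 and DRAGEN without role or order, and hg38; annotation release and strand setting were not given in the sources used here. Of 58051 listed genes, 57447 were found in GENCODE 29, which gave coordinates, exon lengths and exon overlaps.

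Counts were filtered with filterByExpr (18046 genes kept), scaled by TMM (factors 0.93, 0.926, 1.077 and 1.079) and tested with edgeR 4.0.16's quasi-likelihood test in R 4.3.3, with no covariate; p-values were adjusted by Benjamini-Hochberg across the tested genes. Levels are TMM-scaled CPM; fold changes are fitted log2 values of plus Dox over minus Dox. A HOX gene and a cofactor enter the counts and sums but are not reported here, and figures leave them out. All other HOX genes were named; from each other list the text names up to 4 tested genes with the lowest adjusted p (every tested non-coding RNA, every called flanking gene) and, chosen after its values were seen, EZH2. The HOX genes and lists (125 of 127 names matched) were chosen with earlier results of these data known. Promoter windows come from RefSeq. Libraries of a group differed beyond sampling noise. The 8 alternatives were library size scaling, DESeq2 1.42.0, no filter, a replicate block and leaving out each library.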

Additional observations from a re-analysis of the deposited data

How the results depend on the processing

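Scaling was the choice that moved most. With library size alone edgeR called 7865 genes higher and 2925 lower, and HOX genes went from 9 higher and 7 lower to 14 and 0, with 0.23 as their median; HOXB7 reversed, to 0.05. Counts then were 5 higher for cofactors, 8 higher and 1 lower for PRC2, 13 higher for PRC1, 1 lower for trithorax, 0 lower for CTCF and cohesin, 5 higher for retinoic acid genes, 3 higher and 0 lower for non-coding RNAs, and 25 higher and 3 lower for flanking genes. Summed CPM without and with doxycycline became 279 and 345 for all clusters, 52.9 and 65.5 for HOXA, 129.8 and 154 for HOXB, 81.8 and 107 for HOXC, and 14.3 and 18.3 for HOXD. DESeq2, which left 12476 genes without an adjusted p, called 2 HOX genes, 0 non-coding RNAs and 7 flanking genes lower and 1 retinoic acid gene higher. With no filter the HOX median was 0.15 and 0 non-coding RNAs were lower. The cause of these shifts was not tested.

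Leaving out each library in turn gave 3 to 7 HOX genes lower (3 without plus Dox replicate 2, 4 without plus Dox replicate 1), 1 to 3 cofactors higher, 1 to 3 PRC2 and 1 to 2 PRC1 genes lower, 1 to 2 retinoic acid genes higher, 0 to 1 non-coding RNAs lower and 7 to 10 flanking genes lower. With a library left out, the lone sample of its group is assumed to vary like the other group. The replicate block gave 10 HOX genes higher and 7 lower, and 0 non-coding RNAs lower. Across genes, same-numbered libraries did not deviate together (correlation 0.017). With 2 libraries per group, this cannot exclude a pairing that affects only some genes. Of 16 called HOX genes, 7 were called in every alternative and 15 kept their sign; HOXB7 was the exception.

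Depth limits the lowest genes: 3 counts are 0.0800 to 0.0895 CPM, and HOXA9, HOXC5, HOXD1 and HOTTIP rest on few counts.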

Other observations

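Relatives of the HOX genes other than the 39 were mostly at or near 0. Of 8 ParaHox, CDX and EVX genes, 2 passed the low-count filter. PDX1, a ParaHox gene of pancreas and duodenum, was at 0.0887 and 0.293 CPM without and at 0.824 and 0.507 CPM with doxycycline. It passed the low-count filter through its treated libraries only, as HOXD1 did. Its fitted rise of 1.76 on the log2 scale (SE 0.58, edgeR adjusted p = 0.00913) was not called by DESeq2 (adjusted p = 0.103). Its log2 fold change ran from 1.16 without minus Dox replicate 1 (edgeR adjusted p = 0.160) to 2.85 without minus Dox replicate 2, and it was also not called without plus Dox replicate 1 (1.37, edgeR adjusted p = 0.224). CDX2, which regulates posterior HOX genes in the gut, was at 0.621 and 1.04 CPM without and at 1.11 and 0.955 CPM with doxycycline, and these groups overlapped (log2 fold change 0.30, edgeR adjusted p = 0.508). EVX1, which lies beside HOXA13, had means of 0.0400 and 0.0852 CPM, and EVX2, which lies beside HOXD13, was at 0 in all libraries. CDX1, CDX4, GSX1 and GSX2 were too low to test.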
